A study of Mus musculus with 16 samples.

Results

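The genes described here are the mouse histone modifying enzymes and the CHD chromatin remodellers, measured in B cells with and without the microRNAs miR-221 and miR-222. They were chosen by name alone from the protein coding genes of the RNA table, as lysine methyltransferases (Kmt2, Kmt5, Setd, Ehmt, Ezh, Suv39h, Nsd, Dot1l and Ash1l), lysine demethylases (Kdm), lysine acetyltransferases (Kat, Crebbp and Ep300), histone deacetylases (Hdac), sirtuins (Sirt) and the Chd family, leaving out the Y chromosome. That rule took 85 of the 43432 genes in the table, of which 21678 are protein coding. All 85 had a mean normalized count of at least 10 over the 8 RNA libraries and were tested. Among them, 2 genes matched by name only: Nsdhl encodes a sterol dehydrogenase, and Chd3os lies beside Chd3 on the opposite strand.

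The series compared splenic B cells labelled KO with cells labelled Flox, both of the strain written C57B6L/J. All cells had been stimulated over 4 days of culture by anti-CD40 antibody at 500 ng/ml together with interleukin 4 at 25 ng/ml and interleukin 21 at 10 ng/ml, signals that stand in for T cell help. Each genotype had 4 RNA-seq libraries of total RNA and 4 libraries of RNA bound to Ago2, the protein that carries microRNAs to their targets, made by HITS-CLIP. The series title names miR-221/222-3p as the object of study, and the headers of the RNA table call the Flox libraries WT. The labels used here name neither the recombinase that removes the floxed allele nor the age of the mice, and do not say that replicates came from separate mice, so what the p-values take as error is library-to-library spread, which may be technical.

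Chromatin is written and read by opposing enzymes: methyltransferases and acetyltransferases place marks on histone tails, and demethylases, deacetylases and sirtuins remove them. Methylation of histone H3 at lysine 4 and acetylation by CBP and p300 mark active promoters and enhancers, whereas methylation at lysine 9 or lysine 27 marks silent chromatin. CHD proteins slide or evict nucleosomes with the energy of ATP, and several of these enzymes, among them Ezh2, Kmt2d and Crebbp, are known for their part in the germinal centre B cell response and in lymphoma.

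The microRNAs that separate the genotypes are shown with bases 2 to 8, the seed that pairs with targets, in capitals. Both mature sequences are 23 nt long and come from RefSeq (GRCm38.p6), on the minus strand of the X chromosome, miR-221-3p at chrX:19146307-19146329 and miR-222-3p at chrX:19146901-19146923. They carry the same seed, GCUACAU, and differ in the bases after it.
mmu-miR-221-3p: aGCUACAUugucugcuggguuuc
mmu-miR-222-3p: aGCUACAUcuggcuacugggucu

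The RNA libraries held 22947689 to 39616596 reads in the gene table, recovered from the deposited normalized counts. Reads over the noncoding gene Gm14636 at the microRNA locus separated the labels, at 220 to 288 per KO library against 1 to 3 per Flox library. The annotated microRNA genes could not serve as a check, since Mir221 had 0 reads in every KO library and at most 3 in a Flox library. KO 1 and KO 3 stood apart on the first principal component over all tested genes (33.5% of the variance, with scores of -38.0 and -35.4 against -15.5 and 7.48 in KO 2 and KO 4 and 14.5 to 26.4 in Flox) and had the highest mitochondrial shares of reads, 3.14% and 4.27%, against 1.80% to 2.24% in the other 6 libraries. The 7 B cell markers summed to 3137 to 3984 CPM (a gene's reads scaled to the library total) in KO and 3689 to 3908 in Flox. The 7 myeloid markers summed to 11.8 to 17.5 in KO and 11.0 to 15.7 in Flox, the 7 T cell markers to at most 1.02 and the 4 NK cell markers to at most 1.51, with Trbc2, Klrd1 and Ncr1 at 0 in every library. The 5 neutrophil markers summed to at most 0.0702, with S100a8 and S100a9 at 0, and the 6 red cell and platelet markers to at most 2.27, with Ppbp, Hbb-bs and Hba-a1 at 0. As these were bulk cultures, a change in the make-up of the cells and a change of RNA per cell cannot be told apart.

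The first question was whether any of these enzymes differed between KO and Flox. Of the 85 members, 63 had a positive difference (higher in KO) and 22 a negative one, and the median difference was 0.14 on the log2(normalized count + 1) scale, against -0.01 over all 13037 genes tested. None passed the threshold of 0.05 in limma after Benjamini-Hochberg adjustment over all genes, with adjusted p-values from 0.237 to 0.995, and 0.069% of all tested genes did. At an unadjusted limma p under 0.05, 23 members were higher in KO and 4 lower, against 7.74% and 7.39% of all genes. In 14 members all 4 KO values lay above all 4 Flox values, and in 2 all lay below, against 4.17% and 3.79% of all genes.

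A count model gave calls where limma gave none. DESeq2 on the recovered whole reads called 8 members higher in KO at an adjusted p under 0.05, and 0 lower, against 1.21% of 12023 genes called higher and 0.566% called lower. These were Kmt2d, Setd1b, Kmt2e and Kmt2a of the group listed as H3K4 methyltransferases, the acetyltransferases Crebbp, Ep300 and Kat6a, and the demethylase Kdm2a. The authors' deposited table gave adjusted p-values under 0.05 for 7 of these, all but Kmt2e, for which it lists none, against 1.09% of its genes higher in KO. edgeR's quasi-likelihood test on the same reads called 0 members (0.069% of all genes). At an unadjusted edgeR p under 0.05 there were 30 members, against 1951 of all 13037 genes tested. The DESeq2 calls rested on particular libraries: all 8 were lost without KO 1, without Flox 3 or without Flox 4, 3 were made without KO 3, 0 without KO 1 and KO 3 together, and 13 without KO 2. The numbers called over all genes in those fits are not given here, so this dependence cannot be read as particular to the members.

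**Figure D1:**
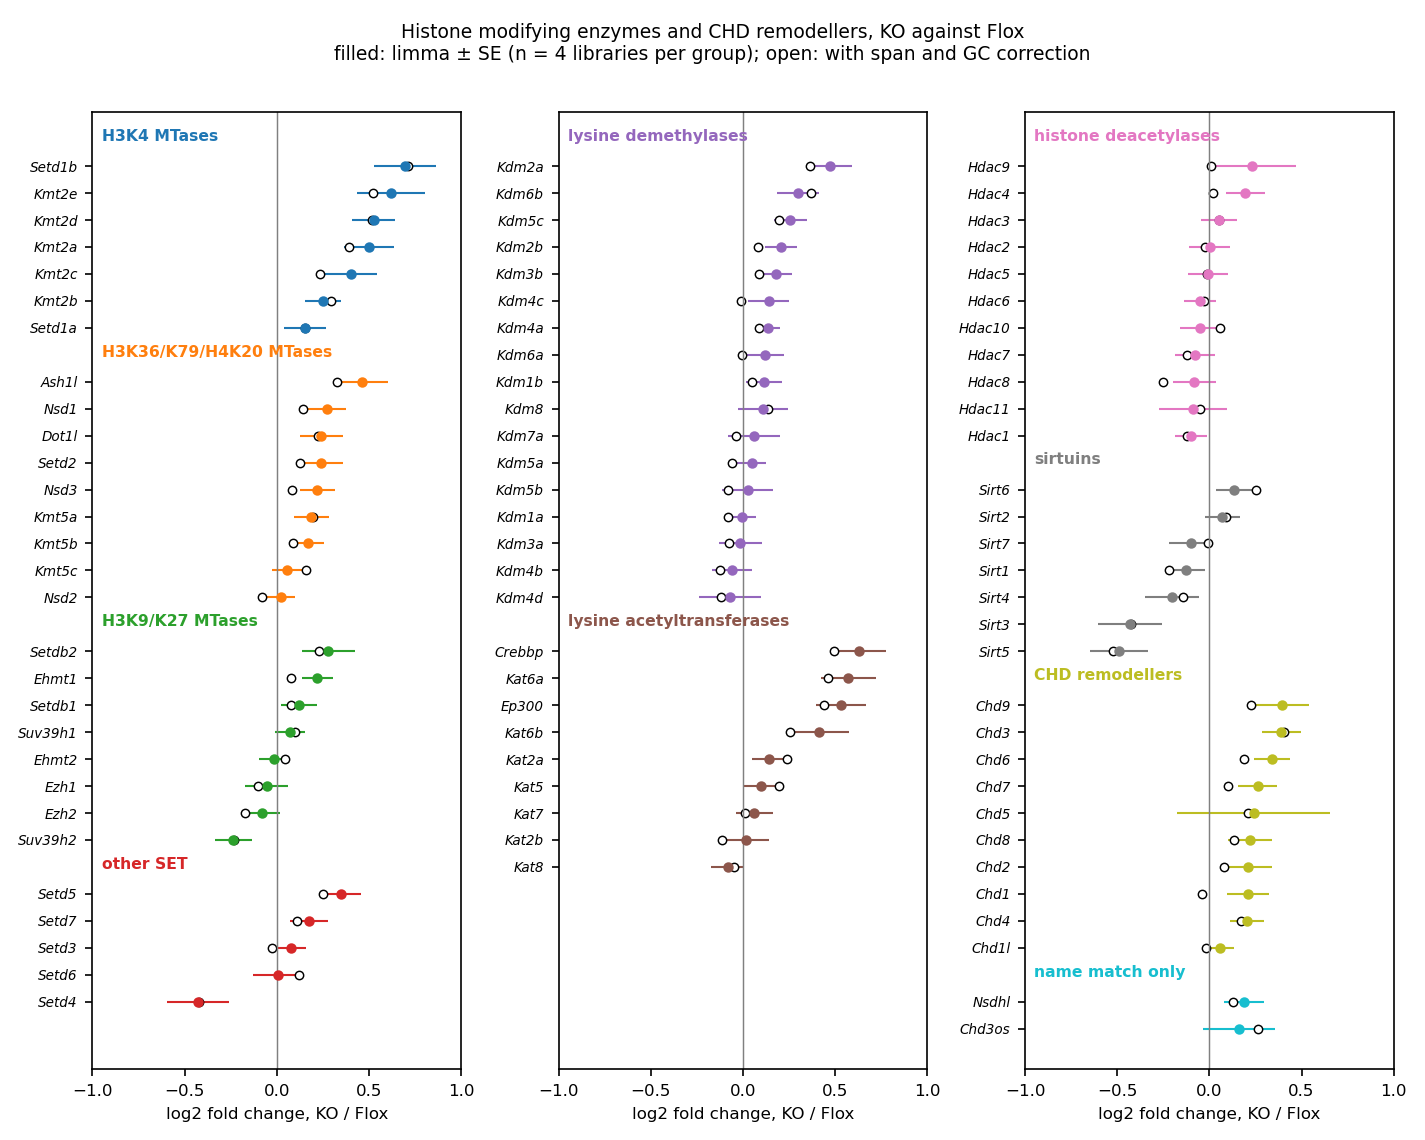
Difference between KO and Flox in log2(normalized count + 1), with its standard error, for each of the 85 members, grouped by role, with the value after correction for gene span and GC content beside it. Before correction the H3K4 methyltransferases, the H3K36, H3K79 and H4K20 methyltransferases and the CHD remodellers all sit above 0. Below 0 sit 5 of the 7 sirtuins and 7 of the 11 deacetylases. After correction all 7 H3K4 methyltransferases stay above 0. So do 8 of the 9 H3K36, H3K79 and H4K20 methyltransferases and 8 of the 10 CHD remodellers.

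The H3K4 methyltransferases showed the highest median difference of the role groups, 0.50, with all 7 members positive (range 0.15 to 0.69). Of these 7, 6 had an unadjusted limma p under 0.05, in 4 the KO and Flox values did not overlap, and DESeq2 called the same 4. Setd1b (chr5:123142193-123168629, plus strand, GRCm38), a SET1 catalytic subunit that places bulk H3K4 methylation, had normalized counts of 2008, 1504, 1705 and 1243 in KO 1 to KO 4. In Flox 1 to Flox 4 its counts were 1169, 1170.1, 786 and 866. Every KO library was above every Flox library, by 0.69 on the log2 scale (standard error, SE, 0.17), with an adjusted p of 0.237 in limma and 0.0171 in DESeq2.

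Kmt2d (chr15:98831669-98871204, minus strand), an enhancer H3K4 monomethyltransferase, measured 4263, 3605, 3938 and 4058 in the KO libraries and 3015, 3316, 2320.4 and 2459.8 in the Flox libraries. Here the highest KO library was KO 1 and the lowest KO value still exceeded the highest Flox value. The difference was 0.53 (SE 0.12), with an adjusted p of 0.237 in limma and 0.0148 in DESeq2. Kmt2e (chr5:23434441-23504235, plus strand), a SET and PHD finger protein of the same family, gave 4900.1, 3745, 7419 and 4345 in KO and 3552, 3639, 2829 and 2902 in Flox. Kmt2e is grouped here by its name and not by a measured methyltransferase activity. KO 3 was far above the other KO libraries, and the groups did not overlap, with a difference of 0.62 (SE 0.18) and an adjusted p of 0.0373 in DESeq2 and 0.239 in limma. Kmt2a (chr9:44803355-44881296, minus strand), the MLL protein that maintains Hox gene expression, gave 5765, 4170.4, 5665 and 4687 in KO and 3956, 4166, 2986 and 3236 in Flox. KO 2 was the lowest KO library and lay just above Flox 2, the difference was 0.50 (SE 0.13), and the adjusted p was 0.0396 in DESeq2 and 0.239 in limma. The other members of this group, Kmt2c (0.40), Kmt2b (0.25) and Setd1a (0.15), overlapped between the genotypes.

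The paralogs CBP (Crebbp) and p300 (Ep300), which acetylate H3K27 at enhancers, and the MYST enzymes Kat6a and Kat6b were the members with an unadjusted p under 0.05, and 8 of the 9 acetyltransferases had a positive difference (median 0.14), 7 after the correction for gene span and GC content. Crebbp (chr16:4081328-4213997, minus strand) measured 2775, 2285, 3432 and 2266 in KO and 1869, 1959, 1468 and 1593 in Flox. All 4 KO values exceeded all 4 Flox values, KO 3 being the highest and Flox 3 the lowest. Its difference of 0.63 (SE 0.14) had the smallest DESeq2 adjusted p of all members, 0.00941, beside a limma adjusted p of 0.237.

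Ep300 (chr15:81585351-81652077, plus strand) measured 5348, 3980.0, 5587 and 3997 in KO and 3781, 3467, 2829 and 2934 in Flox. KO 2 and KO 4 sat close together just above Flox 1, while KO 1 and KO 3 were much higher. The difference was 0.53 (SE 0.14), and the adjusted p was 0.0279 in DESeq2 and 0.238 in limma. Kat6a (chr8:22859535-22943259, plus strand), the MOZ enzyme that acetylates histone H3, measured 4272, 3306, 4346 and 3401 in KO and 3105, 2999.8, 2113 and 2172 in Flox. The same order appeared, with KO 1 and KO 3 highest and Flox 3 and Flox 4 lowest, the difference was 0.57 (SE 0.15), and the adjusted p was 0.0336 in DESeq2 and 0.238 in limma. Its paralog Kat6b had means of 647 ± 107 in KO and 486 ± 89.0 in Flox (SD, n = 4 each) and a difference of 0.41 (SE 0.16). Kat7, the HBO1 enzyme and the acetyltransferase with the highest count in Flox, gave 4135 ± 604 against 3937 ± 55.6, and Kat2b, the PCAF enzyme and the lowest, gave 472 ± 75.7 against 462 ± 13.8. Neither difference, 0.06 and 0.01, exceeded the spread between libraries.

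Among the 17 lysine demethylases, 13 differences were positive (8 after correction), with a median of 0.11, and 4 genes were separated without overlap, all higher in KO. Kdm2a (chr19:4314419-4398285, minus strand), a JmjC demethylase of H3K36 that binds CpG islands, measured 5814, 4881, 6371 and 5051 in KO and 4492, 4432, 3482 and 3559 in Flox. Every KO library was higher, by 0.47 (SE 0.12) on the log2 scale, with an adjusted p of 0.0279 in DESeq2 and 0.237 in limma. Its paralog Kdm2b, with 3679 ± 199.6 in KO and 3191 ± 294 in Flox, differed by 0.21 (SE 0.09). Kdm6b, the H3K27 demethylase JMJD3 that lifts the mark placed by Ezh2, measured 946, 683, 827 and 726 in KO and 641, 649, 668 and 614 in Flox. The 4 Flox values were close together and all below the lowest KO value, a difference of 0.30 (SE 0.11). Kdm5c, an H3K4 demethylase, differed by 0.26 (SE 0.09), with 3776 ± 205 against 3168 ± 319.6. The H3K27 demethylase Kdm6a (0.12, SE 0.10) and Kdm7a (0.06, SE 0.14), a demethylase of H3K9 and H3K27, were closer to 0, and both turned slightly negative with the correction for gene span (-0.01 and -0.04). Kdm3a, the demethylase with the highest count in Flox, gave 4859 ± 847 against 4864 ± 295, and the lowest, Kdm4d, gave 119 ± 11.6 against 125 ± 18.6.

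**Figure D2:**
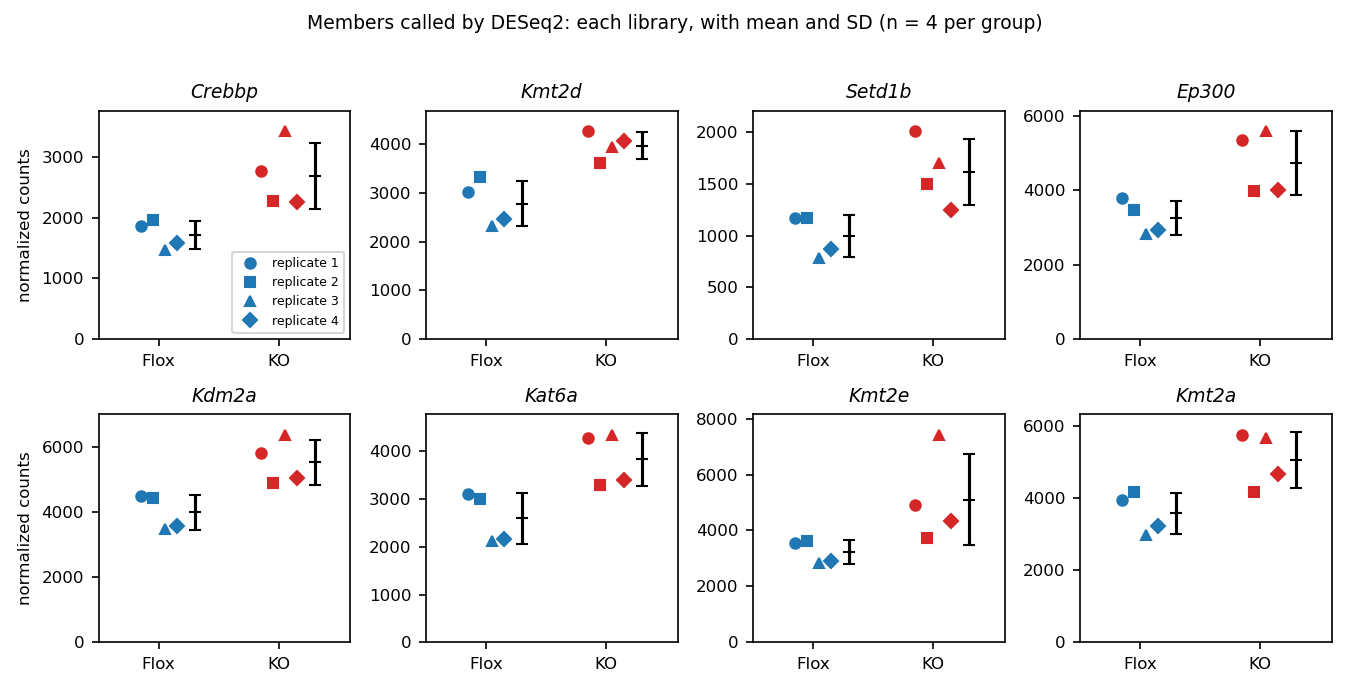
Normalized count in each of the 4 KO and 4 Flox libraries for the 8 members called by DESeq2, 1 point a library, with the mean and SD of each genotype (n = 4). In all 8 genes the KO libraries all lie above the Flox libraries, with KO 1 or KO 3 highest and Flox 3 and Flox 4 lowest.

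The writers of H3K36, H3K79 and H4K20 methylation were higher in KO in direction in 9 of 9 genes, and in 8 after the correction for gene span and GC content described further on, with a median of 0.22 and a range from 0.02 to 0.47. Ash1l, an H3K36 methyltransferase that counters Polycomb, measured 3175, 2402, 3396 and 2735 in KO and 2326, 2509, 1826 and 1829.6 in Flox. KO 2 was below Flox 2, so the groups overlapped, and the difference was 0.47 (SE 0.14). Nsd1, which places H3K36 dimethylation, had means of 6359 ± 475 and 5289 ± 694 and a difference of 0.27 (SE 0.10). Nsd3 differed by 0.22 (SE 0.10), and Dot1l, the H3K79 methyltransferase, by 0.24 (SE 0.12). Nsd2, the member of this group with the highest count in Flox, was nearly equal, at 6615 ± 339 in KO and 6509 ± 335 in Flox, and is the 1 that turned negative with that correction (-0.08). The lowest in Flox, the H4K20 enzyme Kmt5b, gave 1587 ± 158 against 1407 ± 50.5.

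Writers of the silencing marks at H3K9 and H3K27 were divided, with 4 of 8 differences positive, a median of 0.03 and a range from -0.24 to 0.28. Suv39h2, which trimethylates H3K9 in heterochromatin, measured 495, 499.5, 547 and 537 in KO and 657, 593, 646 and 555 in Flox. All KO values were below all Flox values, and the difference was -0.24 (SE 0.10), with a limma adjusted p of 0.307. Ehmt1, the GLP enzyme that dimethylates H3K9, ran the other way, with 2003, 1976, 2149 and 1799 in KO and 1757, 1789, 1600.2 and 1658 in Flox. Its 4 KO libraries lay above the Flox libraries, by 0.22 (SE 0.08). Setdb2 differed by 0.28 (SE 0.14) and Setdb1 by 0.12 (SE 0.10). Ezh2, the catalytic subunit of Polycomb repressive complex 2, had 9711 ± 1162 in KO and 10236 ± 697 in Flox, a difference of -0.08 (SE 0.10). With the correction for span and GC content it was -0.17 (SE 0.06), with an unadjusted p of 0.0156 and an adjusted p of 0.247 in limma, and 2 of the 8 genes then had all KO values below all Flox values, against 1 without the correction. The other SET domain enzymes held 4 positive differences of 5. Setd5 differed by 0.35 (SE 0.11), with 8492 ± 1324 in KO and 6611 ± 424 in Flox. Setd4 had 171, 189, 149 and 255 in KO and 237, 265, 258 and 251 in Flox, so that KO 4 was within the Flox range while the other 3 were below it, and its difference was -0.43 (SE 0.17). Setd7 and Setd3, which methylate nonhistone proteins as well, differed by 0.17 (SE 0.10) and 0.08 (SE 0.08).

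Of the 11 histone deacetylases, 4 had a positive difference, the median was -0.05, and 0 had an unadjusted limma p under 0.05. The range ran from -0.10 in Hdac1, a class I deacetylase of the NuRD and Sin3 complexes (1729 ± 55.0 in KO and 1856 ± 169 in Flox), to 0.23 (SE 0.24) in Hdac9, the lowest in Flox, which was 0.057 without KO 3. Hdac4, a class II deacetylase, had 1098 ± 109.6 against 959 ± 97.3, and Hdac7, the highest in Flox and a repressor known from lymphocyte development, had 7404 ± 779 against 7823 ± 922. After the correction for span and GC content Hdac9 was 0.01 and Hdac4 0.02, down from 0.19. Of the 11, 1 then had an unadjusted p under 0.05 and no overlap, Hdac8, which is named after its values were seen, at -0.25 against -0.08 without the correction.

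The sirtuins, deacylases that need NAD, had a median difference of -0.13, and 2 of 7 were positive. Sirt5 (chr13:43365496-43395203), a mitochondrial desuccinylase, measured 77.2, 102, 98.3 and 94.7 in KO and 130.0, 124, 133 and 134 in Flox. All 4 KO values were below the lowest Flox value, and the difference was -0.49 (SE 0.16), which did not pass in limma (adjusted p 0.246). Sirt3, the main mitochondrial deacetylase, measured 215, 249, 146 and 236 in KO and 248, 282, 292 and 301 in Flox, a difference of -0.43 (SE 0.17) that was -0.26 without KO 3. Its span overlaps Ric8a and Psmd13 on the opposite strand, with mean counts of 2427 and 4969 against 246 for Sirt3, and the sources used here do not say whether counting used strand. The spans of Ash1l, Suv39h2, Kmt2e, Setdb1, Hdac7, Kdm2b and Nsd2 likewise overlap protein coding genes on the opposite strand with a mean count of at least 10 (Dap3, Dclre1c, Srpk2, Cers2, Slc48a1, Rnf34 and Nelfa), and that of Sirt7 overlaps Mafg on the same strand. Of these, in Setdb1, Ash1l and Suv39h2 the overlapping gene had the higher mean count. Further members overlap such genes and are not all listed, among them Kdm1b with Dek (mean counts of 1128 and 9730). Sirt2 with Nfkbib is another (2163 and 2929). Sirt4 (-0.20, SE 0.15) was lower in KO in direction, Sirt6 (0.14, SE 0.10), a nuclear H3K9 deacetylase, was higher, and Sirt7, the highest in Flox, differed by -0.10 (SE 0.12).

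All 10 CHD remodellers were higher in KO in direction, and 8 after the correction for span and GC content, with a median of 0.23 and a range from 0.06 to 0.39. Chd3, an ATPase of the NuRD complex, measured 6796, 6227, 6964 and 6361 in KO and 6282, 4772, 4680.2 and 4515 in Flox. Flox 1 lay within the KO range and the other 3 Flox libraries were below all KO libraries, a difference of 0.39 (SE 0.11). Chd4, the other NuRD ATPase and the highest CHD in Flox, had 24274 ± 1629 against 21108 ± 2040.2, a difference of 0.20 (SE 0.09). Chd6, a subfamily III remodeller like Chd7 and Chd9, measured 2486, 2119, 2754 and 2378 in KO and 2069, 2009, 1832 and 1769.7 in Flox, and the groups did not overlap, with a difference of 0.34 (SE 0.10). Chd7 differed by 0.26 (SE 0.10), also without overlap, and Chd9 by 0.39 (SE 0.15). Chd5, which is mainly neural, was near the lower limit, at 19.4 ± 9.47 in KO and 15.3 ± 4.48 in Flox. Of the genes that match by name only, Nsdhl differed by 0.19 (SE 0.11) and Chd3os by 0.16 (SE 0.20), and the span of the latter lies beside that of Chd3 without overlapping it.

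The KO libraries did not contribute equally. Set against the mean of the 4 Flox libraries on the log2 scale, the median over the 85 members was 0.16 in KO 1, 0.09 in KO 2, 0.23 in KO 3 and 0.06 in KO 4. Among the Flox libraries it was 0.07 and 0.06 in Flox 1 and Flox 2 and -0.06 and -0.08 in Flox 3 and Flox 4. Other protein coding genes of the longest span class, described further on, had 0.14, 0.04, 0.26 and 0.08 in KO 1 to KO 4. In Flox 1 to Flox 4 those genes had 0.05, 0.05, -0.03 and -0.07, so the order is not particular to the members. In 54 of the 85 members, Flox 3 and Flox 4 were both below Flox 1 and Flox 2, and in 13 both were above. The share over all genes is not given here. The H3K4 methyltransferases carried the same order further, with 0.61, 0.22, 0.65 and 0.34 in KO 1 to KO 4 and 0.15, 0.22, -0.23 and -0.15 in Flox 1 to Flox 4, so KO 2 and Flox 2 had the same median. In the sirtuins the order was turned over, with -0.40 in KO 3 and 0.10 in Flox 4. Other protein coding genes of the shortest span class also had it turned, with -0.33 in KO 3 and 0.07 in Flox 4. After the correction for span and GC content, KO 3 was at -0.37 in the sirtuins and at -0.07 in those genes. In KO 1 and KO 3 the H3K4 methyltransferases were then at 0.53 and 0.47, against 0.00094 and -0.019 in the longest span class. Without KO 1 and KO 3, the libraries that stood apart, the 8 genes called by DESeq2 differed by 0.30 (Ep300) to 0.48 (Kmt2d and Setd1b), the median over the 85 members was 0.087, and 12 members had an unadjusted p under 0.05 and a positive difference, against 23 with all libraries. The count was 13 without Flox 3 and 13 without Flox 4. The shares over all genes with these libraries left out are not given here, so the fall cannot be read as particular to the members. The part of the mitochondrial share or of these libraries in the differences was not tested.

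**Figure D3:**
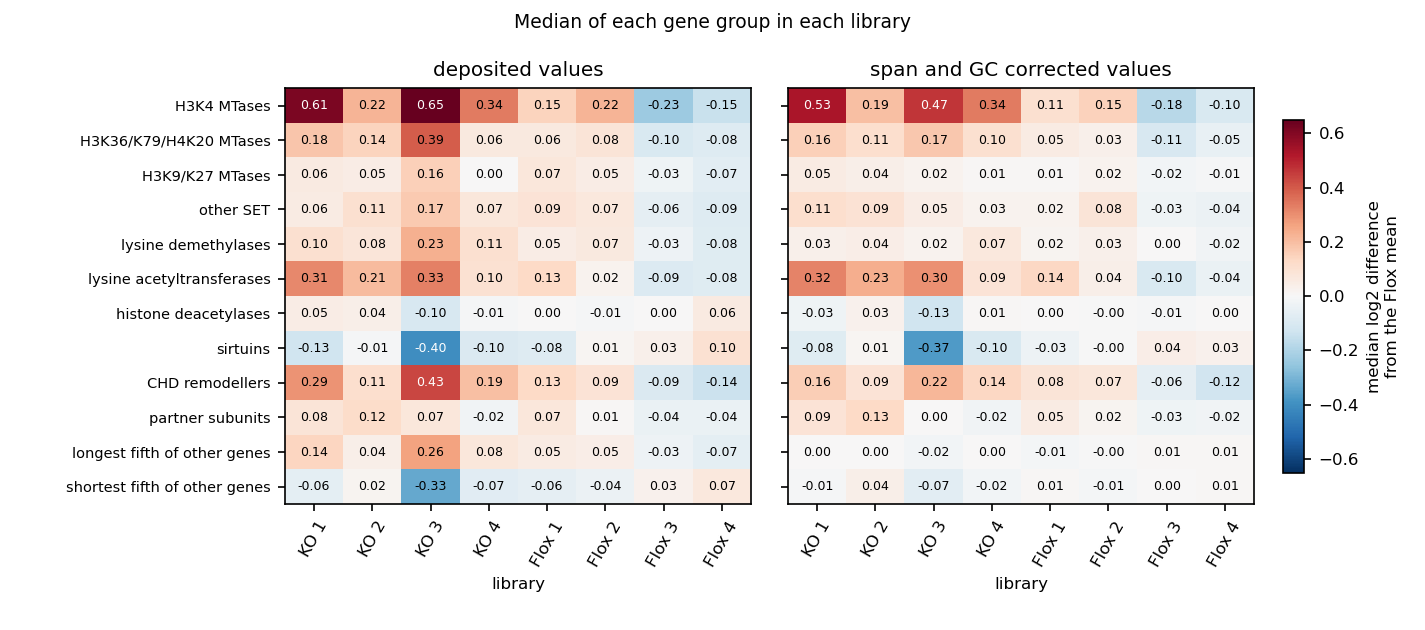
Median difference of each library from the mean of the Flox libraries, in log2(normalized count + 1), for each role group and for other gene sets, as deposited and after correction for gene span and GC content. The KO 3 and KO 1 medians are the highest for the H3K4 methyltransferases (0.65 and 0.61) and KO 3 is the lowest for the sirtuins (-0.40). In other genes KO 3 is likewise the highest for the longest span class (0.26) and the lowest for the shortest (-0.33). After correction KO 3 is at -0.37 for the sirtuins and at -0.07 for the shortest span class.

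Members are long genes, with a median span of 44019 nt against 23355.5 nt over the tested protein coding genes, and span went with the difference between genotypes across the transcriptome. Over the other protein coding genes the median difference went from -0.13 in the shortest of 5 equal classes of span to 0.12 in the longest (65156 nt and more), where 70.2% were positive. Of the 85 members, 33 lay in that longest class, and 30 of them were positive, with a median of 0.22. Across the 85 members, the difference and the log10 span had Pearson's r of 0.36 and Spearman's rho of 0.45, a description over genes that share the same 8 libraries. Span includes introns, and transcript lengths were not used here.

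The differences were also computed after a smooth function of span and GC content was removed from each library. The members' median difference was then 0.08, with 54 of 85 positive, against -0.02 over all genes, and r with span was 0.01. At an unadjusted p under 0.05, 18 members were then higher and 7 lower, against 7.48% and 8.1% of all genes. All KO values lay above all Flox values in 14 members and below in 4, against 4.12% and 4.05%, and 10 of those 14 were among the 14 found without the correction. The medians were 0.39 for the H3K4 methyltransferases, 0.24 for the acetyltransferases, 0.15 for the CHD remodellers, -0.01 for the demethylases and -0.14 for the sirtuins. Corrected differences were 0.71 for Setd1b, 0.51 for Kmt2d, 0.49 for Crebbp, 0.46 for Kat6a, 0.36 for Kdm2a, 0.41 for Chd3 and -0.52 for Sirt5. Of the 48 members named by the rule, 15 became smaller by over 1.5 times with the same sign, 5 larger, and 5 turned sign. Among the smaller were Chd9 (0.22), Kat6b (0.25), Chd6 (0.19), Nsd1 (0.14), Chd7 (0.10), Nsd3 (0.08), Kdm2b (0.08) and Ehmt1 (0.08). Sirt6 became larger, at 0.25, and its KO values then all lay above its Flox values, and Ezh2 was -0.17 against -0.08. DESeq2 with span and GC offsets called 7 members higher, all of the 8 but Kmt2a (adjusted p 0.0587), against 1.17% of all genes.

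**Figure D4:**
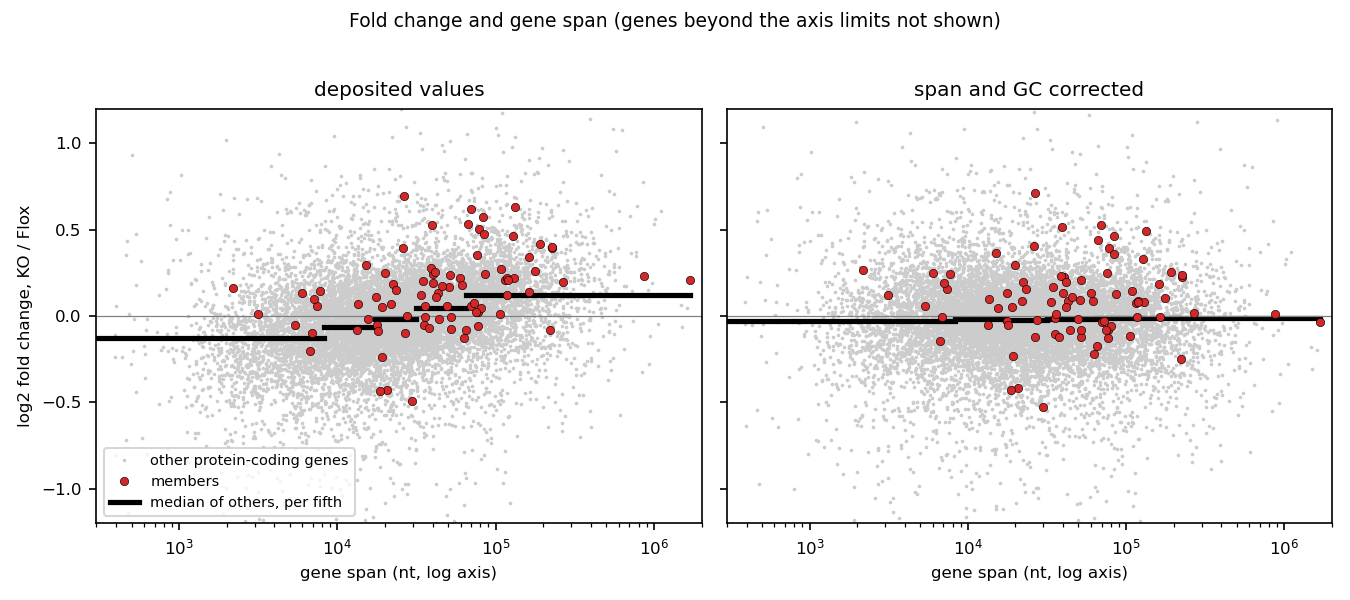
Difference between KO and Flox in log2(normalized count + 1) against gene span in nt on a log axis, for the 85 members over the medians of the other protein coding genes in 5 classes of span, as deposited and after correction. The other genes' medians go from -0.13 in the shortest class to 0.12 in the longest, and lie between -0.03 and -0.01 after correction.

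Subunits that work with these enzymes were read from a separate list of 63 tested genes, and 39 of them had a positive difference, with a median of 0.05 (34 and 0.03 after the correction for span and GC content). None passed in limma after adjustment. At an unadjusted limma p under 0.05, 12 were higher and 4 lower, against 7.74% and 7.39% of all genes. DESeq2 called 4, all higher, against 1.21% of genes called higher and 0.566% called lower. Hcfc1, a cofactor of the SET1 and MLL complexes, had 10475 ± 1814 in KO and 7135 ± 1012 in Flox, a difference of 0.55 (SE 0.14). Gatad2b, a NuRD subunit that joins Chd3 and Chd4 to the deacetylase core, measured 1405, 1003, 1644 and 944 in KO and 859.5, 894, 536 and 538 in Flox, and the difference of 0.82 (SE 0.22) exceeded that of every member. Ncor1, a corepressor that binds Hdac3, differed by 0.52 (SE 0.14), and Paxip1, a subunit shared by the Kmt2c and Kmt2d complexes, by 0.34 (SE 0.10). Paxip1 was not called by DESeq2 (adjusted p 0.0521). The remaining DESeq2 call, beside Hcfc1, Gatad2b and Ncor1, was Ncoa6, a subunit of the Kmt2c and Kmt2d complexes. Ncoa6 was named after its values were seen, and differed by 0.61 (SE 0.17). Of the 7 tested arginine methyltransferases, 4 had a positive difference and 1 an unadjusted p under 0.05, Carm1 (0.32, SE 0.11), which methylates H3R17. Prmt5, Prmt6 and Prmt7 differed by 0.17, -0.19 and -0.09.

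Ago2 binding to the members' transcripts was read from the authors' deposited dCLIP comparison, which joins 5-nt bins into regions of 1 state and compares 2 conditions that it does not name. Its replicates are pooled, so no test was possible and no sign can be tied to a genotype. On their own strand, 84 of the 85 members held at least 1 region, against 88.2% of 11588 tested protein coding genes, and Setd6 held 0. A score of at least 5 was reached by 69 members, against 64.5% of genes, and a region with a mean absolute difference of at least 0.25 between the conditions was held by 75 members, against 72.4%. Together they held 14830 regions, with a median of 83 a gene against 17, and most in Chd1 (828), whose deposited span of 1689932 nt also covers other genes on the same strand. Longer members held more (r 0.75 and rho 0.81 for log10 span against log10 regions) and more abundant ones too (r 0.66 and rho 0.62, n = 85 genes from the same libraries), and the density was 1.88 regions per kb of span against 0.896 as medians. By direction, 30.9% of the members' regions had a negative difference between the conditions, 59.7% none and 9.38% a positive one, close to 31.2%, 59.0% and 9.80% over the tested genes.

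Regions were then divided by their distance from the 3′ end. Within 5000 nt of the 3′ end, 17.9% of the members' 2013 regions were positive, against 8.04% of the 12817 farther away, and over all tested genes the shares were 14.6% and 8.59%. In the 8 genes called by DESeq2, 21.6% of 422 near regions and 7.98% of the others were positive. The region with the highest score within that distance had a positive difference in 7 of these 8 genes and a negative one in Crebbp, and in 47 of the 70 other members with a region there. For Kmt2d it lay at chr15:98833800-98833834 (score 48.3, difference 0.39, 2148 nt from the end), for Setd1b at chr5:123168400-123168574 (score 55.5, difference 0.30, 142 nt) and for Ep300 at chr15:81651905-81651984 (score 26.5, difference 0.35). Kdm2a held the highest such score of the 8, 94.7, at chr19:4316395-4316424 (difference 0.22), and Crebbp's region at chr16:4085860-4085899 scored 28.9 (difference -0.35). The regions of Crebbp next in score within that distance were positive (scores 23.6 and 21.7). For the sign of the highest-scoring region, the share over all tested genes is not given here. Exons and UTRs were not assigned, as no genome annotation of exons was used here.

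High Ago2 scores occurred in members with small and with larger RNA differences. Nsd2 held the highest, 162.0, at chr5:33897000-33897054, 948 nt from its 3′ end, with a difference between the conditions of -0.24, and its RNA difference was 0.02. Kdm6a followed with 125.7 at chrX:18279465-18279519 (0.44) and an RNA difference of 0.12. Ash1l scored 105.8 at chr3:89079335-89079379, 18 nt from its end (-0.30), with an RNA difference of 0.47. Nsd3 scored 103.6 at chr8:25716285-25716334 (0.41) and Kdm7a 102.2 at chr6:39142530-39142634 (0.31), with RNA differences of 0.22 and 0.06. Of the genes called by DESeq2, Kdm2a (94.7) and Kmt2e (89.1) were also among the 10 highest scores. The median best score of the members was 16.5 against 7.7 over the tested genes. Across the members, the number of regions and the RNA difference had r of 0.52 and rho of 0.53, with span and abundance shared by both measures.

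**Figure D5:**
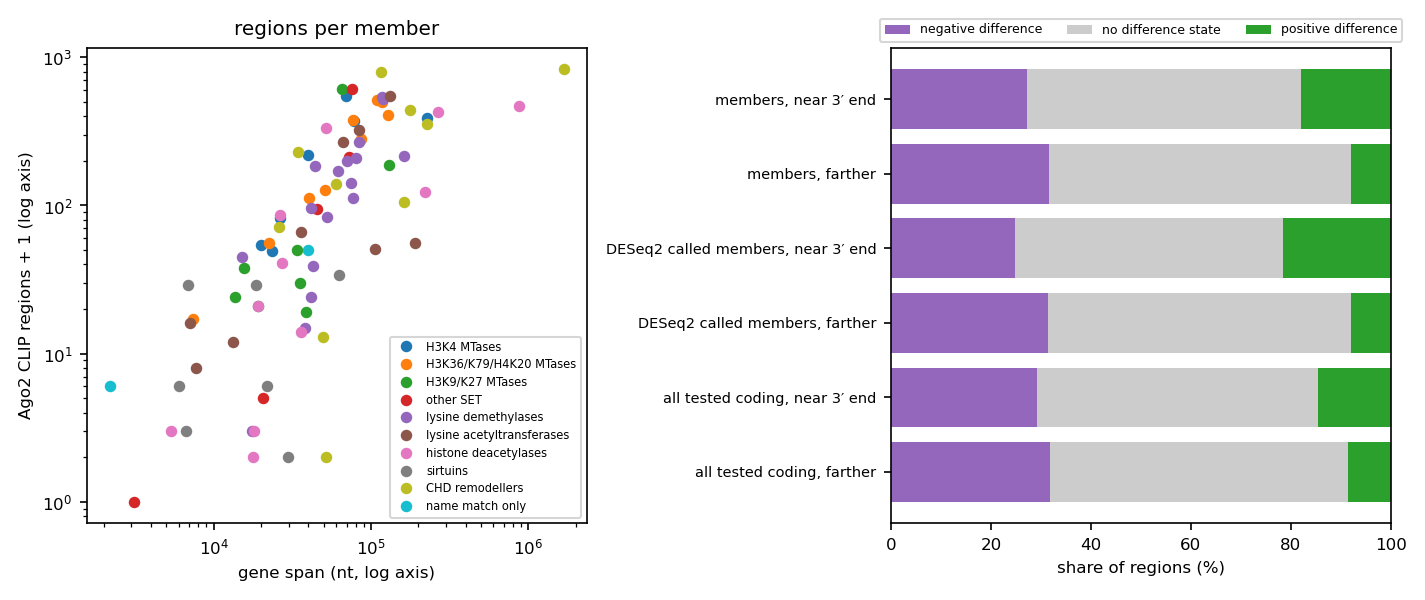
Ago2 HITS-CLIP regions of the members, with the number of regions per gene against gene span on log axes, and the share of regions of each state near to and far from the 3′ end for the members, the 8 called by DESeq2 and all tested protein coding genes. Positive regions make up 17.9% of those within 5000 nt of the members' 3′ ends and 8.04% of the rest.

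Promoters (250 bases before to 50 after the start, RefSeq, GRCm38.p6) were matched for 64 of the 85 members and compared with those of 9147 tested protein coding genes. The choice differed where a gene had several: nearest the gene's start for members, first listed for the tested genes. Setd1b, Kmt2e, Kat6a and Kdm2a were among the members without a match. The GC box GGGCGG, searched on both strands, was present in 41 (64.1%) against 65.4%, the ETS motif CCGGAAG in 20.3% against 19.4%, and TATAAA in 2 (3.13%) against 6.52%. Median GC content was 61% in both sets. A match is a description of the letters and not a bound site.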

How the data were processed

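RNA-seq of KO and Flox B cells was deposited as a gene table. Its values are counts divided by a size factor (a normalized signal), deposited by the authors with log2 fold changes, fold ratios, p-values and stabilized log2 values, per the file headers. GC content is a percent per gene, per the file headers. Ago2 data are a deposited dCLIP output with a difference score and state per bin and a deposited score per region. The submitters' processing notes name the build mm9 and the tools STAR, Bowtie2, cutadapt, SAMtools, DESeq and DESeq2, with no versions. Positions in the files matched GRCm38: 84 of 84 members with a RefSeq symbol overlapped its GRCm38.p6 span, and 87.6% of regions lay in a gene on the same strand.

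The deposited values gave whole reads for 100% of values (within 0.1 read), and rows without a symbol held 0.174% to 0.189% of reads and were left out. limma 3.58.1 (R 4.3.3) with a mean-variance trend was fitted to log2(value + 1), with genes of mean 10 or more (13037), Benjamini-Hochberg adjustment and a threshold of 0.05, two-sided. A fold change on this scale understates that of low genes. On the recovered reads, edgeR 4.0.16 called 9 genes and DESeq2 1.42.0 called 214. A corrected version removed splines of span and GC content with 4 degrees of freedom. Other alternatives were TMM scaling, another pseudocount, other filters, quality weights, leaving out each library and the replicate block. DESeq2 with span and GC offsets, DESeq2 without each library, the omission of KO 1 and KO 3 together and the 5000 nt limit were chosen after seeing the data. The fits were tested on simulated data. Regions are runs of bins of 1 state, and 4 columns of tags and mutations in the Ago2 output were not used.

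The members and lists were chosen with earlier results of these data known. Named in each role were the 4 members with the smallest p, members past a threshold in any of limma, DESeq2 and the authors' table, those highest and lowest in Flox, the 5 with the highest Ago2 scores, and 4 of each other list. Others are named to complete a count or a group.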

Additional observations from a re-analysis of the deposited data

Results flagged for a closer look

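In 112 groups of 4 libraries of named genes, 3 held a library far from the other 3 by Dixon's 95% limit, which chance alone passes in about 5% of groups. Chd3 in Flox 1 measured 6282 normalized counts, above the other Flox libraries at 4515 to 4772. Ezh2 in KO 3 measured 11444, above the other KO libraries. Sirt4 in Flox 1 measured 239.7, below the other Flox libraries.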

How the results depend on the processing

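The members' median difference of 0.14 stayed positive under every alternative. It was 0.11 to 0.17 leaving out 1 library, 0.084 with span and GC correction, 0.086 with offsets in DESeq2 and 0.087 without KO 1 and KO 3. With DESeq2, the number past an adjusted p of 0.05 went from 9 to 214 over all genes, from 0 to 8 in members and from 0 to 4 in partner subunits; with span and GC offsets as well, it was 238, 7 and 4. Quality weights gave 16 genes in all. Leaving out 1 library gave 8 to 17 genes in all and 0 members in limma, and 0 to 13 members in DESeq2. Members at an unadjusted p under 0.05 went from 23 higher to 13 to 29, and from 4 lower to 1 to 4, the 1 without Flox 2 and without Flox 3. Members without overlap went from 14 above to 14 to 22, the 22 without KO 2 and without KO 4, and from 2 below to 2 to 4. Without KO 1 and KO 3, 12 were higher and 1 lower at an unadjusted p, 4 lay below without overlap, and DESeq2 called 0. Groups with libraries left out separate more easily by chance, and the shares over all genes are not given here for those sets. The member counts with libraries left out therefore cannot be read as particular to the members. With span and GC correction, 7 were lower at an unadjusted p and 4 lay below, and with offsets in DESeq2 7 were lower. Correlations between same-numbered libraries ran from -0.09 to 0.00, and between different-numbered ones from -0.16 to 0.22. They were taken on deviations from the mean of each group of 4, so they cannot exclude a pairing of the samples. The replicate block gave 11 genes in all and 0 members, and the block with span and GC correction left 4 members below.

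Of 56 named genes, 44 kept their direction under all 20 alternatives, and 12 did not. Without KO 1 and KO 3, signs turned in Chd5 (-0.10), Hdac9 (-0.093), Kat2b (-0.11), Kat7 (-0.098), Kdm7a (-0.063), Nsd2 (-0.014), Prmt7 (0.0051) and Sirt7 (0.058). With span and GC correction, with or without the replicate block, they turned in Kat2b (-0.11), Kdm6a (-0.0061), Kdm7a (-0.037), Nsd2 (-0.083) and Setd3 (-0.028), and with DESeq2 offsets in the same genes (-0.10, -0.0059, -0.024, -0.080 and -0.025) and Sirt7 (0.0017). In edgeR Kdm3a was 0.00094. Leaving out 1 library, the values ran from -0.029 to 0.54 in Chd5, -0.066 to 0.12 in Kat2b, -0.030 to 0.12 in Kat7, -0.12 to 0.078 in Kdm3a, -0.16 to 0.0075 in Kdm4d, -0.061 to 0.18 in Kdm7a, -0.0040 to 0.060 in Nsd2 and -0.20 to 0.012 in Sirt7. The cause of these changes was not tested. Depth leaves Chd5, Chd3os and Sirt5 with the fewest reads of the members named.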

Other observations

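Some subunits of the Sin3 deacetylase complex, chosen for mention after their values were seen, had negative differences. They come from no list of their own and were not tested as a group. Sap30 measured 798, 1026, 733 and 1107 in KO and 1228, 1144, 1256 and 1165 in Flox, with every KO library below every Flox library, and differed by -0.41 (SE 0.13). Sin3b measured 6047, 6599.9, 5108 and 6646 in KO and 6664, 7404, 7606 and 7696 in Flox, also without overlap, and differed by -0.27 (SE 0.10). Its paralog Sin3a differed by 0.27 (SE 0.11) in the other direction, with 4078 ± 429.6 in KO and 3401 ± 484 in Flox. Ing4, a reader of H3K4 trimethylation in the Kat7 complexes, differed by -0.30 (SE 0.11), and the histone chaperone Rbbp4 by -0.20 (SE 0.09). None of these passed in limma or DESeq2 after adjustment.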
